A study of Mus musculus with 24 samples.

Results

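The genes described here code for the subunits of the mitochondrial respiratory chain and ATP synthase that are encoded in the nucleus. They were chosen by name, as protein-coding genes of the count table whose symbols start with Nduf followed by a, b, c, s or v and a digit, with Uqcr, with Cox4 to Cox8 or with Atp5. The rule found 83 genes among 55487 distinct Ensembl IDs, of which 38 were placed in complex I, 8 in complex III, 19 in complex IV and 18 in complex V, and 79 passed the filter on low counts. The data were bulk RNA-seq read counts from 24 libraries of mouse LSK cells (lineage-negative, Sca-1+, KIT+ blood progenitors), in 6 groups of 4 biological replicates. Liver cells of newborn mice (P0, the day of birth) were from wild type (P0 WT) or from a Tet-off model of the human MLL::ENL leukaemia fusion (ME) whose induction began at E10.5, in mid-gestation (P0 ME). Marrow cells taken 28 days after birth (P28) were from wild type (P28 WT), from ME mice induced at E10.5 (P28 E10.5-induced ME) or from ME mice induced at P0 (P28 P0-induced ME). The sixth group, also ME induced at E10.5 and taken from marrow at P28, is called RLT Vav Txp in the labels, which do not expand the name (P28 RLT Vav Txp ME). Its libraries carry no replicate number and are numbered here in accession order. The labels give neither the strain, the promoter that drives the Tet transactivator, nor the alleles of the WT mice, and the design text calls the sorted cells lineage-negative KIT+ progenitors. Liver was sampled at P0 and marrow at P28, so age and tissue cannot be told apart.

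Complex I takes electrons from NADH and complex III passes them through cytochrome c to complex IV, which reduces oxygen. These complexes pump protons across the inner mitochondrial membrane, and complex V, the ATP synthase, uses the resulting gradient to make ATP. Apart from a small core encoded in mitochondrial DNA, their subunits come from nuclear genes, many of whose promoters bind NRF1, GABP and YY1. Blood stem cells are known for low use of respiration, which rises as they leave quiescence.

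Upstream sequences are shown for 4 members named in the results below, of which 3 hold a searched motif. In P28 RLT Vav Txp ME, Atp5l and Atp5k (subunits of the membrane part of ATP synthase) and Uqcrh (the complex III hinge protein) were higher than in P28 E10.5-induced ME, and Ndufv1 (the NADH- and FMN-binding subunit of complex I) was the only member called higher in P28 E10.5-induced ME than in P28 WT. The higher calls of Atp5l, Atp5k and Uqcrh did not hold with offsets for transcript length, described below. Each line is the 250 bases before the annotated start, from RefSeq with GRCm38.p6, and capitals mark a match to a searched motif.
Atp5l: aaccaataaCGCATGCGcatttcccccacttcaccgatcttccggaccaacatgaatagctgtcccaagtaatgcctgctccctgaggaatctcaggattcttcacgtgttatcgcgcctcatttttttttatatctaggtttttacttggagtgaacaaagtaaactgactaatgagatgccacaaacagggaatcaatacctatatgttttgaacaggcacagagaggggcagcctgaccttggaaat
Atp5k: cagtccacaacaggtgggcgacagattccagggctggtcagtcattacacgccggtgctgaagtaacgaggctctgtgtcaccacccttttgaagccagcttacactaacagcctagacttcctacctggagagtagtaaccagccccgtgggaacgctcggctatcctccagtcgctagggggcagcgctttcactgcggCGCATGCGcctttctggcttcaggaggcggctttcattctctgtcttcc
Uqcrh: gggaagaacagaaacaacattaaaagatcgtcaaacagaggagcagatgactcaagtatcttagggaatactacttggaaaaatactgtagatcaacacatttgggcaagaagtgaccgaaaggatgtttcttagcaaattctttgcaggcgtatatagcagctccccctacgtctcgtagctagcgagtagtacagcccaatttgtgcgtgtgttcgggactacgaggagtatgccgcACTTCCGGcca
Ndufv1: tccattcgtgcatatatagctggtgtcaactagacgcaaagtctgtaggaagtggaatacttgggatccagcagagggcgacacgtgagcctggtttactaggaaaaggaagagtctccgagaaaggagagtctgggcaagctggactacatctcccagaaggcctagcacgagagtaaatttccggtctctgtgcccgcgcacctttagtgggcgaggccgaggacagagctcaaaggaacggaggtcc
The windows lie at chr9:44920743-44920992, minus strand, for Atp5l, at chr5:108434400-108434649, minus strand, for Atp5k, at chr4:116075071-116075320, minus strand, for Uqcrh, and at chr19:4012756-4013005, minus strand, for Ndufv1. The motifs searched on both strands were CGCATGCG (the core of the NRF1 site), CCGGAAGT (the core bound by ETS factors such as GABPA) and AAGATGGCG (the core of the YY1 site), and none of the 3 strings contains another. The NRF1 core began 241 bases before the RefSeq start in Atp5l and 49 bases before it in Atp5k, and the ETS core began 11 bases before the RefSeq start of Uqcrh. For Atp5k and Ndufv1, the GENCODE M21 gene models used here for lengths start further upstream, at 108434448 and 4012806, inside these windows. The NRF1 match of Atp5k lies within its GENCODE model.

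Across members, 65 of 83 had a RefSeq promoter window of 300 bases (250 before and 50 after the start). The NRF1 core was found in 9 of these (13.8%), against 2.07% of 27025 genes with such a window. The YY1 core was found in 7 members (10.8%) against 1.64% of genes, and the ETS core in 5 members (7.69%) against 4.31% of genes. At least 1 of the 3 motifs was present in 19 members (29.2%) and in 7.58% of all genes, noncoding ones included. By complex, 8 of 32 complex I genes, 3 of 5 complex III genes, 2 of 13 complex IV genes and 6 of 15 complex V genes held a match. The YY1 core was in 5 complex I genes (Ndufa9, Ndufc1, Ndufs4, Ndufs6 and Ndufs7), and the NRF1 core was in 4 complex V genes (Atp5g2, Atp5j, Atp5k and Atp5l). A match is a string in this window and does not show that a factor binds there.

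Library totals ran from 31233688 to 89774511 counts. Members took 1.16 to 2.56% of the counts of a library, and transcripts of the mitochondrial genome took 0.371 to 3.46%. The libraries numbered 1 in both P0 groups stood apart. Their summed level of 10 erythroid genes was 723 CPM (counts scaled to library size, TMM-normalised) in the WT library and 342 CPM in the ME library, against 5564 to 18111 CPM in the other P0 libraries, and their 8 neutrophil genes summed to 888 and 770 CPM against 9539 to 30679 CPM. Genes that mark LSK cells summed to 4453 and 4604 CPM in them, against 2062 to 3125 CPM in the other P0 libraries. In P28 WT the LSK sum was 4261 to 4706 CPM, so by erythroid, neutrophil and LSK markers the libraries numbered 1 were the P0 libraries nearest to P28 WT. All 8 mast cell and basophil genes together reached 941 to 10745 CPM in P0 WT, above the 48.1 to 836 CPM of P0 ME. The 10745 CPM was that of P0 WT library 1, the P0 WT library farthest from P28 WT (7.90 to 43.4 CPM) by this list. Its 8 lymphoid genes summed to 40.9 CPM, also the farthest in P0 WT from the 236 to 329 CPM of P28 WT. In P28 RLT Vav Txp ME, 9 macrophage genes summed to 789 to 3277 CPM, against 47.7 to 111 CPM in the other P28 groups, and 9 genes that mark LSK cells summed to 1885 to 2911 CPM, against 4261 to 5119 CPM. The LSK markers Kit and Ly6a were present in every library, and 7 hepatocyte genes summed to 26.3 to 221 CPM at P0. In bulk RNA, fewer cells of a type and less RNA per cell cannot be told apart.

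**Figure D1:**
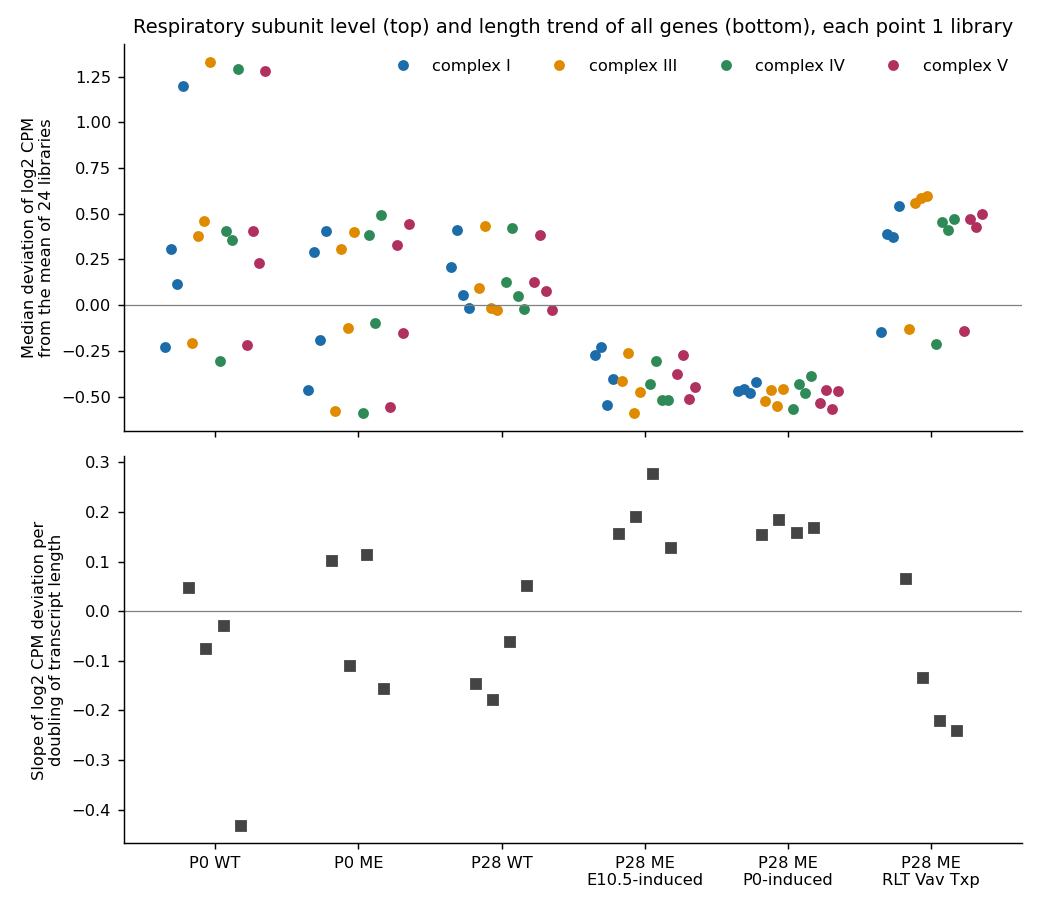
Top: for each library, the median over the tested subunits of a complex of the log2 CPM deviation from the mean of the 24 libraries, with colours for the complexes. Bottom: the slope of that deviation on log2 transcript length over all genes. The P28 E10.5-induced and P0-induced ME libraries have the lowest subunit medians at P28 and slopes of 0.128 to 0.277, and P0 WT library 4 has a slope of -0.43.

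Levels between genes are compared as CPM per kilobase of the principal or longest transcript, averaged over 24 libraries. Complex V held the highest value, 801 CPM per kb for Atp5b, the catalytic beta subunit. Ndufa4, which the naming rule places with complex I although its protein is found in complex IV, followed at 776 CPM per kb, and Cox4i1, the common form of complex IV subunit 4, stood at 755 CPM per kb. The median level per length was 129 CPM per kb in complex I, 305 in complex III, 207 in complex IV and 232 in complex V. The lowest level in complex III was that of Uqcrq, at 94.5 CPM per kb, and the highest that of Uqcr10, at 497 CPM per kb. These values rest on chosen transcripts of 1521 bases for Uqcrq and 434 bases for Uqcr10. Atp5g1, which codes for the same c-ring protein as Atp5g2 and Atp5g3, had the lowest level per length in complex V, at 39.4 CPM per kb. Its chosen transcript of 4715 bases is the longest of the tested members.

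Isoforms known from other tissues were mostly scarce. Cox7a1 and Cox6a2, the heart and muscle forms of their subunits, were at 2.00 and 3.30 CPM per kb, and Ndufa4l2, a paralog of Ndufa4 known to be induced by low oxygen, was at 3.24 CPM per kb. Cox4i2, the lung-enriched form of subunit 4, was at 8.15 CPM per kb and Cox6b2, known from testis, at 53.0 CPM per kb. The 4 members that did not pass the filter on low counts were Cox7b2 (74 counts over all libraries), Cox8b (29 counts), Cox8c (5 counts) and a second Ensembl ID also named Atp5o (0 counts). Ndufb1-ps and Cox5b-ps are annotated as protein coding but carry names of pseudogene copies, so their counts are uncertain where reads could be split between copies.

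Within P28 marrow, respiratory subunits of all 4 complexes were lower in E10.5-induced ME than in WT. Of 79 members, 15 were called lower and 1 higher (edgeR quasi-likelihood test, adjusted p under 0.05), against 4.44% of 23059 genes called lower and 7.82% called higher. The median log2 fold change was -0.61 over members and -0.10 over all genes tested. In 54 members every E10.5-induced ME library was below every WT library, which held for 11.6% of all genes. The called genes were 9 lower and 1 higher in complex I, 2 lower in complex III, 2 lower in complex IV and 2 lower in complex V, and the complex medians ran from -0.64 to -0.52.

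By the naming rule Ndufa4 is counted in complex I here, although its protein is found in complex IV. It was at 624, 792, 621 and 504 CPM in the P28 WT libraries 1 to 4. In E10.5-induced ME it was at 310.5, 325, 254 and 286 CPM. The groups did not overlap, with a fitted log2 change of -1.11 (edgeR adjusted p = 0.00881, SE 0.26). Ndufb9, an accessory subunit of the membrane arm, was at 128, 149, 115 and 105 CPM in P28 WT and at 67.8, 70.1, 61.7 and 61.2 CPM in E10.5-induced ME. All E10.5-induced libraries were below all WT libraries, with a fitted log2 change of -0.93 (edgeR adjusted p = 0.0186, SE 0.26). The other lower members of complex I were Ndufs4, Ndufb4, Ndufb8, Ndufb5, Ndufa6, Ndufc2 and Ndufa7, accessory subunits with log2 fold changes of -0.97 to -0.76. Ndufv1 moved the other way and was at 140.3, 139, 149 and 137 CPM in P28 WT. After E10.5 induction of ME it was at 217, 213, 192 and 172 CPM, above every WT library, with a fitted log2 change of 0.49 (edgeR adjusted p = 0.0255, SE 0.14). Ndufv1 was named after its value was seen.

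In complex III, Uqcrh was at 196, 257, 195 and 169 CPM in P28 WT. It was at 101, 109.8, 93.7 and 107 CPM in E10.5-induced ME, with no overlap and a fitted log2 change of -0.99 (edgeR adjusted p = 0.0115, SE 0.25). Uqcrc2, a core protein of the matrix side, was at 292, 298, 242 and 239.8 CPM in P28 WT and at 189.8, 192, 184 and 194 CPM in E10.5-induced ME, whose 4 libraries were close to one another and below all WT libraries, with a fitted log2 change of -0.49 (edgeR adjusted p = 0.0345, SE 0.15). The other core protein, Uqcrc1, was not called, at a log2 fold change of 0.18 (edgeR adjusted p = 0.389, SE 0.13). The Rieske iron-sulfur protein Uqcrfs1 was also not called, at -0.36 (edgeR adjusted p = 0.203, SE 0.18).

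Among complex IV genes, Cox4i1 was at 669, 780.5, 616 and 581 CPM in P28 WT. E10.5-induced ME had 394, 415, 363 and 333 CPM, below every WT library, with a fitted log2 change of -0.81 (edgeR adjusted p = 0.0139, SE 0.21). Cox7a2l, known as a factor that joins complexes III and IV into supercomplexes, was at 184, 226, 204 and 192 CPM in P28 WT and 131, 139, 134 and 122 CPM in E10.5-induced ME. The groups were again separate, with a fitted log2 change of -0.62 (edgeR adjusted p = 0.0216, SE 0.18). Cox5a and Cox5b, subunits of the matrix side, were not called, with log2 fold changes of -0.08 (edgeR adjusted p = 0.889, SE 0.25) and -0.53 (edgeR adjusted p = 0.116, SE 0.22). The hypoxia-linked isoform Cox4i2 overlapped between the groups, at -0.39 (edgeR adjusted p = 0.653, SE 0.49).

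In complex V, Atp5l (subunit g) was at 106, 133, 110.4 and 100.4 CPM in P28 WT and at 49.7, 73.2, 54.0 and 67.5 CPM in E10.5-induced ME. The groups did not overlap, with a fitted log2 change of -0.88 (edgeR adjusted p = 0.0308, SE 0.27). Atp5e, the epsilon subunit of the central stalk, was at 272, 328, 268 and 220.2 CPM in P28 WT. After E10.5 induction of ME it was at 131, 151, 108 and 123 CPM, lower in every library, with a fitted log2 change of -1.08 (edgeR adjusted p = 0.0364, SE 0.34). The catalytic subunits were not called, with log2 fold changes of 0.38 (edgeR adjusted p = 0.0623, SE 0.13) for Atp5a1 and 0.29 (edgeR adjusted p = 0.166, SE 0.14) for Atp5b. Leaving out 1 library gave 1 to 17 called members, the fewest without P28 WT library 2 and the most without P28 WT library 4, with the 8 medians between -0.66 and -0.54. For this and later fits that left out 1 library, the share of all genes called is not given. Such counts therefore do not tell a change in members from one in all genes. Offsets for transcript length left 2 members called higher and 1 lower, as described with the length trend. Of 9 marker lists, 5 had sums that did not overlap between these groups. In E10.5-induced ME against P28 WT, 8 proliferation genes summed to 2434 to 3287 against 1369 to 1774 CPM, 8 lymphoid genes to 409 to 609 against 236 to 329 CPM and 8 neutrophil genes to 1007 to 1784 against 699.7 to 890.4 CPM. The macrophage genes, at 48.5 to 77.2 against 77.6 to 111 CPM, and the 7 hepatocyte genes, at 14.4 to 15.5 against 16.4 to 22.4 CPM, were lower. Their part in these values was not tested.

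**Figure D2:**
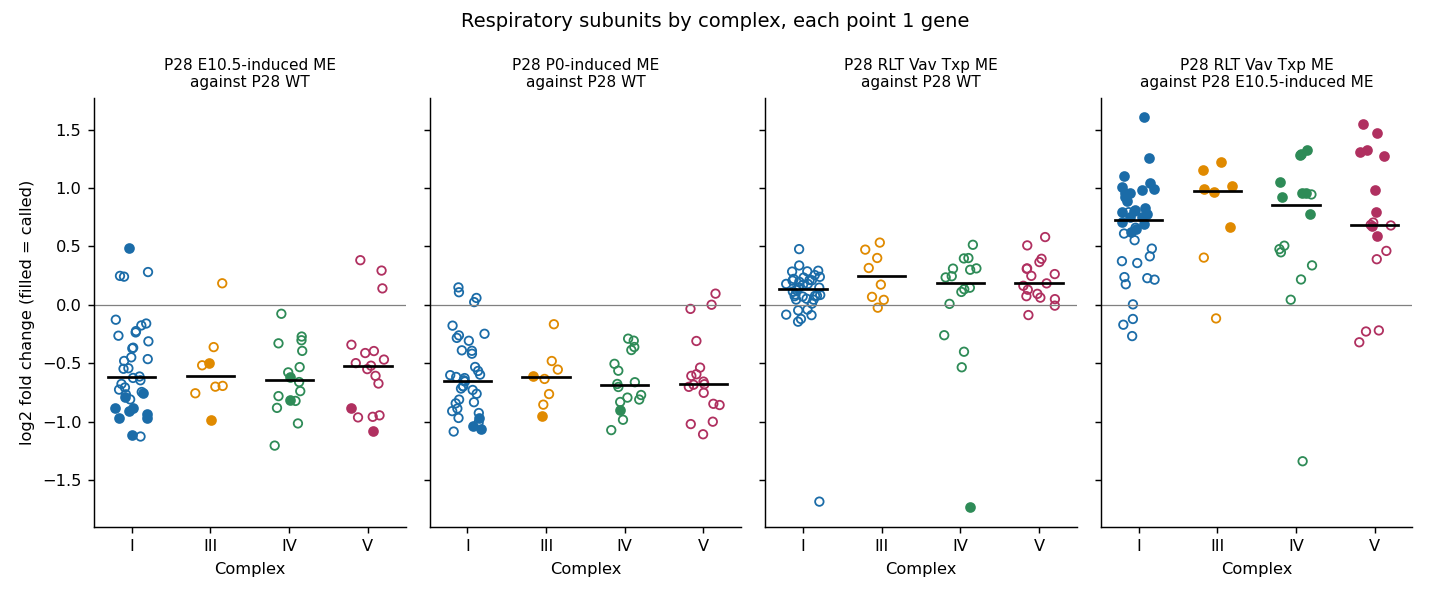
Each point is the log2 fold change of 1 tested subunit in the comparison named above the panel, grouped by complex, filled where called (edgeR adjusted p under 0.05); the black line is the complex median over all tested subunits. Ndufa4l2 lies below the axis in the first 2 panels. Most points lie below 0 in the E10.5-induced and P0-induced ME panels and above 0 for RLT Vav Txp ME against E10.5-induced ME.

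Induction at P0 was compared with the same P28 WT libraries, so the comparisons share their controls. Subunits of complexes I, III and IV were lower here too: 6 of 79 members were called lower and 0 higher in P0-induced ME, and 1.08% of all genes were called lower and 0.494% higher. With no library overlap 61 members were lower, against 10.4% of all genes. The median log2 fold change was -0.66 over members and -0.09 over all genes. The called genes were Ndufb8, Ndufb5 and Ndufb9 of complex I, Uqcrc2 and Uqcrh of complex III and Cox4i1 of complex IV. Complex V had 0 called of 17 (12 at an unadjusted p under 0.05, which 20.2% of all genes reached), and its lowest p was that of Atp5pb, subunit b of the peripheral stalk, at -0.66 (edgeR adjusted p = 0.0631, SE 0.19). Its median was -0.68, and 13 of the 17 were lower without library overlap.

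Ndufb8, an accessory subunit of complex I, was at 156, 179, 123 and 122 CPM in P28 WT. In P0-induced ME it was at 69.8, 71.0, 80.0 and 76.0 CPM, below every WT library, with a fitted log2 change of -0.97 (edgeR adjusted p = 0.0383, SE 0.23). Ndufb5, from the same arm, was at 55.9, 65.5, 60.2 and 67.7 CPM in P0-induced ME against 127, 165, 121 and 109 CPM in P28 WT, with a fitted log2 change of -1.06 (edgeR adjusted p = 0.0454, SE 0.26). Both genes also stood at 97.6, 84.9, 81.8 and 71.0 CPM (Ndufb8) and 71.8, 74.7, 65.3 and 65.2 CPM (Ndufb5) in E10.5-induced ME. Uqcrc2 was at 175, 172, 169 and 185 CPM in P0-induced ME, lower than all WT libraries, with a fitted log2 change of -0.61 (edgeR adjusted p = 0.0463, SE 0.15). Uqcrh was at 106, 101, 109 and 107 CPM there, with a fitted log2 change of -0.95 (edgeR adjusted p = 0.0497, SE 0.25). The 4 P0-induced libraries were close together for Cox4i1, at 356, 363, 345 and 357 CPM, and below WT with a fitted log2 change of -0.90 (edgeR adjusted p = 0.0405, SE 0.21). These calls are near the threshold. Without 1 library, 0 to 7 members were called, 0 for example without P28 WT library 1 and 7 without P28 WT library 4. A fit of only P0-induced ME and P28 WT called 66 members and 5196 genes in all, against 362 genes in the fit of all groups, and length offsets left 0 members (47 of 23059 genes called by edgeR). Erythroid genes summed to 204 to 271 CPM in P0-induced ME and 507 to 673 CPM in P28 WT, and macrophage genes to 47.7 to 64.3 and 77.6 to 111 CPM, both without overlap. Their part in these values was not tested.

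The ME groups induced at P0 and at E10.5 were compared directly at P28. No member was called (edgeR adjusted p, 0.0477% of all genes called, 4 members and 4.33% of all genes at an unadjusted p under 0.05, and 6 called by limma voom, which called 2326 of all genes), and the median log2 fold change was -0.09 over members and -0.02 over all genes. Ndufv1 was at 156, 154, 154 and 163 CPM in P0-induced ME against 217, 213, 192 and 172 CPM in E10.5-induced ME. Every P0-induced library was lower, with a fitted log2 change of -0.34 (edgeR adjusted p = 1.0, SE 0.14). Uqcrc1 had the lowest p of complex III, with a fitted log2 change of -0.35 (edgeR adjusted p = 0.959, SE 0.13). Atp5b, with a fitted log2 change of -0.29 (edgeR adjusted p = 1.0, SE 0.14), and Cox6b2, with a fitted log2 change of -0.35 (edgeR adjusted p = 1.0, SE 0.24), had the lowest p of complexes V and IV. Sums of erythroid genes (204 to 271 CPM after P0 induction, 441 to 814 after E10.5 induction), lymphoid genes (236 to 398 and 409 to 609) and proliferation genes (1638 to 2182 and 2434 to 3287) did not overlap, and their part was not tested.

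In P28 RLT Vav Txp ME, subunits of every complex were higher than in P28 E10.5-induced ME, the ME group with the same time of induction. Of 79 members, 45 were called higher and 0 lower, against 8.5% of all genes called higher and 9.38% called lower. The called genes were 22 of 38 in complex I, 6 of 8 in complex III, 8 of 16 in complex IV and 9 of 17 in complex V. The median log2 fold change was 0.75 over members and 0.12 over all genes. With offsets for transcript length, described below with the length trend, 6 members were called higher and 4 lower and the median was -0.00. Groups that did not overlap were found for 49 members, all higher in RLT Vav Txp ME, against 11.6% of all genes higher without overlap. RLT Vav Txp ME library 1 was the lowest of its group for most members, with complex medians of -0.21 to -0.13 where the other 3 libraries had 0.37 to 0.60.

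Ndufb4, a membrane arm subunit of complex I, was at 72.2, 131, 146 and 154 CPM in the RLT Vav Txp ME libraries. In E10.5-induced ME it was at 50.9, 55.7, 51.1 and 52.6 CPM, with no overlap and a fitted log2 change of 1.26 (edgeR adjusted p = 0.00342, SE 0.28). Ndufb1-ps, whose name marks a possible pseudogene copy, was at 97.2, 230.1, 298 and 306 CPM against 73.8, 81.3, 58.7 and 92.2 CPM, with a fitted log2 change of 1.61 (edgeR adjusted p = 0.00639, SE 0.38). Both genes had their lowest RLT Vav Txp value in library 1. In complex III, Uqcrc2 was at 224, 337, 311 and 336 CPM in RLT Vav Txp ME, above all E10.5-induced libraries, with a fitted log2 change of 0.67 (edgeR adjusted p = 0.00441, SE 0.15). Uqcrh was at 128, 236, 224 and 216 CPM there, with a fitted log2 change of 0.97 (edgeR adjusted p = 0.0093, SE 0.25), which became -0.034 (edgeR adjusted p = 0.912) when GC and length offsets were added.

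Among complex IV genes, Cox4i1 was at 480.4, 777, 725 and 876 CPM in RLT Vav Txp ME, higher in every library than in E10.5-induced ME, with a fitted log2 change of 0.92 (edgeR adjusted p = 0.00454, SE 0.21). Cox7a2, the liver-type form of subunit 7a found in most tissues, was at 139.7, 294, 322 and 365 CPM against 117, 132, 92.6 and 114 CPM, with a fitted log2 change of 1.30 (edgeR adjusted p = 0.0077, SE 0.32). Atp5l of complex V was at 95.8, 163, 155 and 178 CPM, above all E10.5-induced libraries, with a fitted log2 change of 1.28 (edgeR adjusted p = 0.00243, SE 0.27). Atp5k (subunit e) was at 61.3, 119, 144 and 193 CPM against 57.7, 56.6, 43.6 and 50.4 CPM, with a fitted log2 change of 1.31 (edgeR adjusted p = 0.00698, SE 0.32). With length offsets Cox4i1 was at 0.19 (edgeR adjusted p = 0.35), Cox7a2 at 0.44 (edgeR adjusted p = 0.161), Atp5l at 0.32 (edgeR adjusted p = 0.224) and Atp5k at 0.06 (edgeR adjusted p = 0.891), none of which was called. All called members of complexes III and V were separate between the groups, while Ndufa4, Ndufs4, Ndufb6, Ndufb8, Ndufb7 and Ndufb2 of complex I and Cox6c and Cox5b-ps of complex IV overlapped. Between 20 and 53 members were called when 1 library was left out, 20 without RLT Vav Txp ME library 4 and 53 without RLT Vav Txp ME library 1. How many of all genes were called in those fits is not given here. Of 9 marker lists, 8 did not overlap between these groups, and the proliferation list did. In RLT Vav Txp ME against E10.5-induced ME, sums were higher for macrophage genes, given above, erythroid genes (1242 to 2497 against 441 to 814 CPM), mast cell and basophil genes (84.9 to 199 against 15.8 to 32.5 CPM), neutrophil genes (1937 to 6534 against 1007 to 1784 CPM), 6 megakaryocyte genes (223 to 458 against 36.4 to 65.3 CPM) and hepatocyte genes (17.6 to 47.2 against 14.4 to 15.5 CPM). They were lower for LSK genes and for lymphoid genes (76.6 to 363 against 409 to 609 CPM). Their part in these values was not tested.

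Against P28 WT, RLT Vav Txp ME had 1 member called lower and 0 higher (1.48% of all genes called lower and 2.64% higher). The median log2 fold change was 0.15 over members and 0.01 over all genes, with 65 of 79 members above 0. With length offsets the member median was -0.01, with 32 of 79 members above 0, and the median over all genes was -0.13, so members still lay above all genes. The called gene was Cox4i2, at 1.81, 2.22, 3.25 and 0.557 CPM in RLT Vav Txp ME and 4.75, 5.36, 9.54 and 6.39 CPM in P28 WT. The groups did not overlap, with a fitted log2 change of -1.74 (edgeR adjusted p = 0.0483, SE 0.50). Cox4i2 lost this call in 7 of 8 fits that left out 1 library, with adjusted p up to 0.167. Sums of macrophage, erythroid, mast cell and basophil, neutrophil and megakaryocyte genes were higher in RLT Vav Txp ME than in P28 WT without overlap, and LSK genes lower. Mast cell and basophil genes, for example, were at 84.9 to 199 against 7.90 to 43.4 CPM. Their part in the Cox4i2 value was not tested. In the other complexes the lowest p belonged to Ndufa10, with a fitted log2 change of 0.28 (edgeR adjusted p = 0.377, SE 0.15), Uqcr11, with a fitted log2 change of 0.47 (edgeR adjusted p = 0.477, SE 0.28), and Atp5mpl, with a fitted log2 change of 0.58 (edgeR adjusted p = 0.529, SE 0.37), none of which was called. RLT Vav Txp ME libraries other than library 1 had member medians of 0.40 to 0.52 and P28 WT libraries -0.02 to 0.39.

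**Figure D3:**
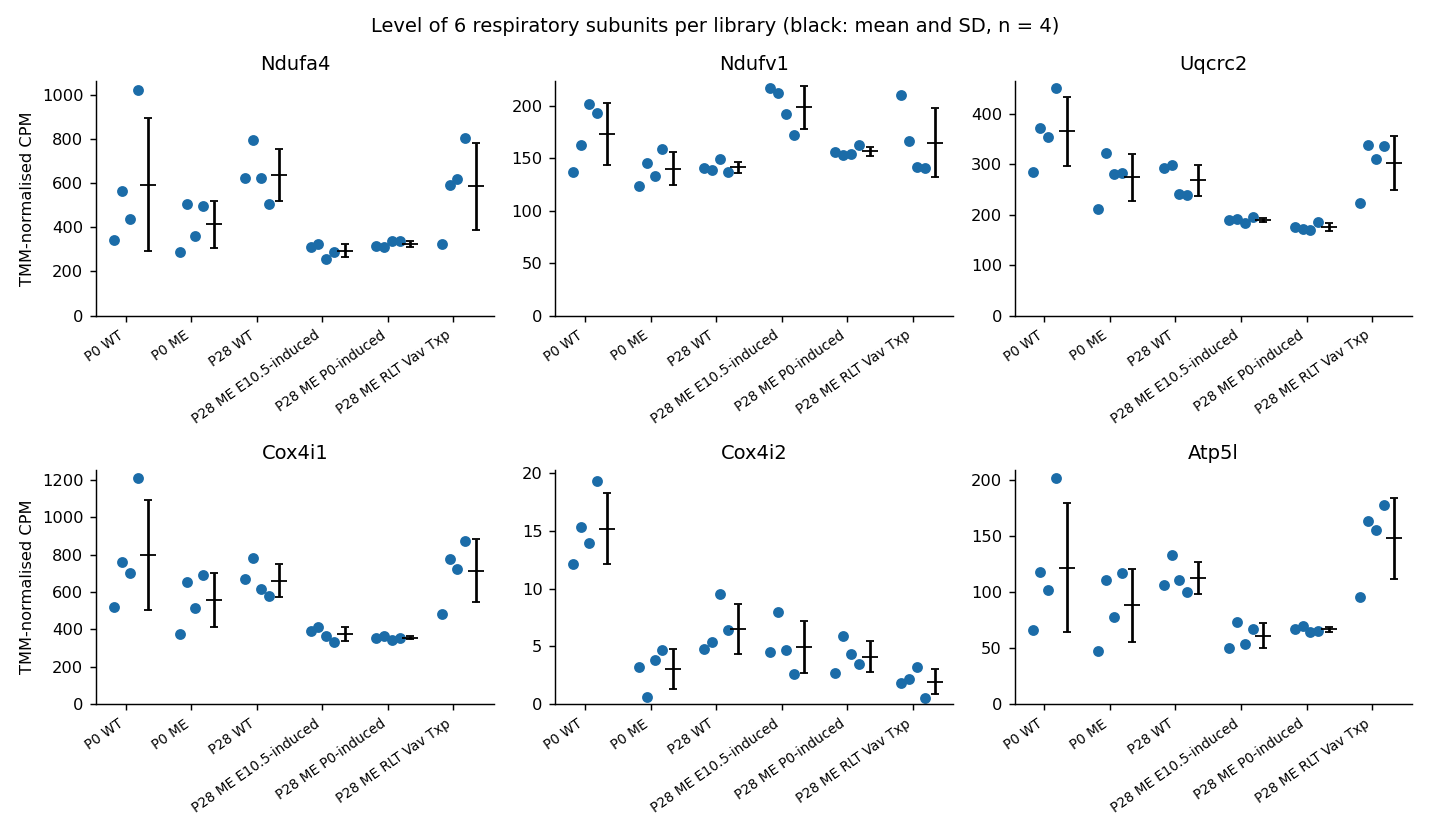
TMM-normalised CPM of 6 subunits in each of the 24 libraries, on linear axes from 0, with the mean and SD (n = 4) of each group in black. Ndufa4, Uqcrc2, Cox4i1 and Atp5l are low in both P28 groups with ME induced at E10.5 or P0, Ndufv1 is above every P28 WT library in P28 E10.5-induced ME, and Cox4i2 is highest in P0 WT.

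At P0, members varied widely between libraries of a group. P0 WT libraries had member medians from -0.25 in library 1 to 1.24 in library 4, and P0 ME libraries from -0.53 to 0.42. Between P0 ME and P0 WT 1 member was called lower and 0 higher, against 0.278% of all genes called lower and 0.364% higher. The median log2 fold change was -0.42 over members and -0.01 over all genes, and 74 of 79 members were below 0. Without P0 WT library 4 the median was -0.14, and without P0 WT library 1 it was -0.63 with 7 called members.

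The called gene was Cox4i2, which was at 12.1, 15.3, 14.0 and 19.4 CPM in the P0 WT libraries. In P0 ME it was at 3.22, 0.642, 3.83 and 4.66 CPM, lower in all 4 libraries, with a fitted log2 change of -2.30 (edgeR adjusted p = 0.0295, SE 0.51). Its partner Cox4i1 was at 519, 762, 699.9 and 1211 CPM in P0 WT, and its P0 ME values of 375, 656, 514 and 692 CPM overlapped with these. Per length, Cox4i2 made up 1.64 to 2.38% of Cox4 transcripts in P0 WT and 0.102 to 0.886% in P0 ME. At P28 this share was 0.712 to 1.59% in WT, 0.817 to 1.97% after E10.5 induction, 0.799 to 1.67% after P0 induction and 0.0664 to 0.466% in RLT Vav Txp ME. The sums of mast cell and basophil genes were also lower in P0 ME, without overlap. Setting the P0 libraries numbered 1 aside, neutrophil sums (17180 to 30679 CPM in P0 ME, 9539 to 14874 in P0 WT) did not overlap either. The same held for proliferation sums, at 1894 to 2061 CPM in P0 ME and 2353 to 2419 in P0 WT. The part of these lists in the Cox4i2 value was not tested. Without the P0 libraries numbered 1, Cox4i2 had a log2 fold change of -2.42 (edgeR adjusted p = 0.0536), so it was no longer called. Over the alternatives its adjusted p ran from 0.000425 to 0.524, and 3 of 8 fits that left out 1 library lost the call. Other complexes had their lowest p at P0 in Ndufs3, a core subunit of the matrix arm of complex I, with a fitted log2 change of -0.51 (edgeR adjusted p = 0.153, SE 0.17), in Uqcrfs1, with a fitted log2 change of -0.54 (edgeR adjusted p = 0.173, SE 0.18), and in Atp5g3, with a fitted log2 change of -0.55 (edgeR adjusted p = 0.26, SE 0.23).

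From P0 liver to P28 marrow, WT cells had 2 members called lower and 0 higher, against 4.56% of all genes called lower and 3.12% higher. The median log2 fold change was -0.32 over members and -0.07 over all genes. Ndufa9, an accessory subunit of complex I next to the quinone site, was at 205, 267, 291 and 432 CPM at P0 and 190.2, 237, 176 and 158 CPM at P28. The ranges overlapped, with a fitted log2 change of -0.65 (edgeR adjusted p = 0.0274, SE 0.18). Uqcrfs1 was at 204, 216, 227 and 409 CPM at P0, library 4 far above the others, and at 165, 187, 167 and 168 CPM at P28, with a fitted log2 change of -0.62 (edgeR adjusted p = 0.0359, SE 0.18). Atp5a1, the alpha subunit of ATP synthase, had a fitted log2 change of -0.42 (edgeR adjusted p = 0.0537, SE 0.13) and was not called. Without the P0 libraries numbered 1, 19 members were called, beside 2797 genes in all (11.7% of those tested). Plain library totals, limma voom and a fit of only the groups compared called 0 members (1668, 1286 and 481 genes in all). Ndufa9 and Uqcrfs1 each lost their call in 5 of 8 fits that left out 1 library, with adjusted p up to 0.0954 and 0.155. Without P0 WT library 4 the median was -0.01. Sums of erythroid genes (507 to 673 CPM at P28, 723 to 18111 at P0), macrophage genes (77.6 to 111 and 221 to 1436), mast cell and basophil genes (7.90 to 43.4 and 941 to 10745), megakaryocyte genes (57.9 to 70.8 and 86.1 to 142) and hepatocyte genes (16.4 to 22.4 and 57.7 to 126) did not overlap, and their part was not tested. Setting P0 WT library 1 aside, sums of LSK, neutrophil and proliferation genes did not overlap either, and their part was also not tested.

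In ME mice induced at E10.5, 13 members were called lower and 2 higher at P28 than at P0, against 8.45% of all genes called lower and 9.79% higher. The median log2 fold change was -0.49 over members and -0.18 over all genes. Length offsets turned this to 9 members called higher and 1 lower, with a median of 0.02. Ndufa4l2 had 36 to 720 counts in the P0 ME libraries and 0 to 14 counts in P28 E10.5-induced ME, at 0.557, 8.90, 8.71 and 17.8 CPM and 0.0208, 0, 0.20 and 0 CPM. It was called lower (edgeR adjusted p = 0.00705), and its fitted log2 fold change of -7.21 (SE 1.78) depends on libraries at 0. P0 WT spanned 0 to 1364 counts of Ndufa4l2, and no P28 library had more than 35. In both P0 groups the lowest count, 0 in WT and 36 in ME, was that of library 1. Cox6b2 was at 29.8, 53.2, 36.2 and 57.9 CPM in P0 ME and 21.0, 24.1, 23.0 and 24.2 CPM in P28 E10.5-induced ME, with a fitted log2 change of -0.94 (edgeR adjusted p = 0.00767, SE 0.24). Ndufb8 at -0.82 (edgeR adjusted p = 0.0131, SE 0.23), Uqcrc2 at -0.53 (edgeR adjusted p = 0.0178, SE 0.15), Cox7a2l at -0.51 (edgeR adjusted p = 0.0444, SE 0.17) and Atp5pb at -0.58 (edgeR adjusted p = 0.0347, SE 0.19) were also lower on the log2 fold change scale. With length offsets Cox6b2 was at -0.30 (edgeR adjusted p = 0.303), Ndufb8 at -0.21 (edgeR adjusted p = 0.319), Uqcrc2 at -0.39 (edgeR adjusted p = 0.0752), Cox7a2l at -0.07 (edgeR adjusted p = 0.804) and Atp5pb at -0.34 (edgeR adjusted p = 0.163), none of which was called. Marker sums that did not overlap were those of macrophage genes (48.5 to 77.2 CPM at P28, 146 to 1612 at P0), mast cell and basophil genes (15.8 to 32.5 and 48.1 to 836), megakaryocyte genes (36.4 to 65.3 and 85.2 to 144), hepatocyte genes (14.4 to 15.5 and 26.3 to 221) and proliferation genes (2434 to 3287 and 1453 to 2061). Setting P0 ME library 1 aside, the sums of LSK, erythroid and neutrophil genes did not overlap either. Their part in these values was not tested.

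Of the members called higher in this comparison, Ndufv1 is described here and was named after its value was seen. Ndufv1 was at 123, 146, 133 and 159 CPM in P0 ME, below all P28 E10.5-induced libraries, with a fitted log2 change of 0.50 (edgeR adjusted p = 0.0163, SE 0.14). The count of called members ran from 3 without P0 ME library 2 to 32 without P0 ME library 1, and was 44 (5101 genes in all, 21.4%) without both P0 libraries numbered 1. Whether the ME effect differed between the ages was tested as an interaction, which called 0 members (edgeR, 0.72% of all genes called, 7 members and 16.5% of all genes at an unadjusted p under 0.05, 1 by DESeq2 and 2 by limma voom, which called 782 and 644 genes in all). Ndufv1 had the lowest p, with an interaction of 0.80 (edgeR adjusted p = 0.0572, SE 0.20) on the log2 scale. Next came Atp5a1 at 0.65 (edgeR adjusted p = 0.0926, SE 0.19), and Cox4i2 had 1.91 (edgeR adjusted p = 0.166, SE 0.69). Without P0 WT library 4 the interaction called 6 members.

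Members are short genes. Their median transcript length was 765 bases over 79 tested members, against 2258 bases over 23022 tested genes with a length, and was 652 bases in complex IV, 838 in complex V, 891.5 in complex I and 955 in complex III. Fold changes of all genes followed length, here split into 10 bins of equal gene number with bin 1 the shortest. For P28 E10.5-induced ME against WT, the median change (log2) over all genes climbed from -0.94 in bin 1 through -0.71 in bin 2 and -0.05 in bin 5 to 0.32 in bin 10. The 38 members in bin 2 had a median of -0.65, and the 14 in bin 3 had -0.62 where all genes had -0.38. P0-induced ME gave -0.65 over all genes and -0.69 over members in bin 2. For RLT Vav Txp ME against E10.5-induced ME the trend ran the other way, from 0.96 in bin 1 to -0.33 in bin 10, with 0.65 over all genes and 0.79 over members in bin 2.

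**Figure D4:**
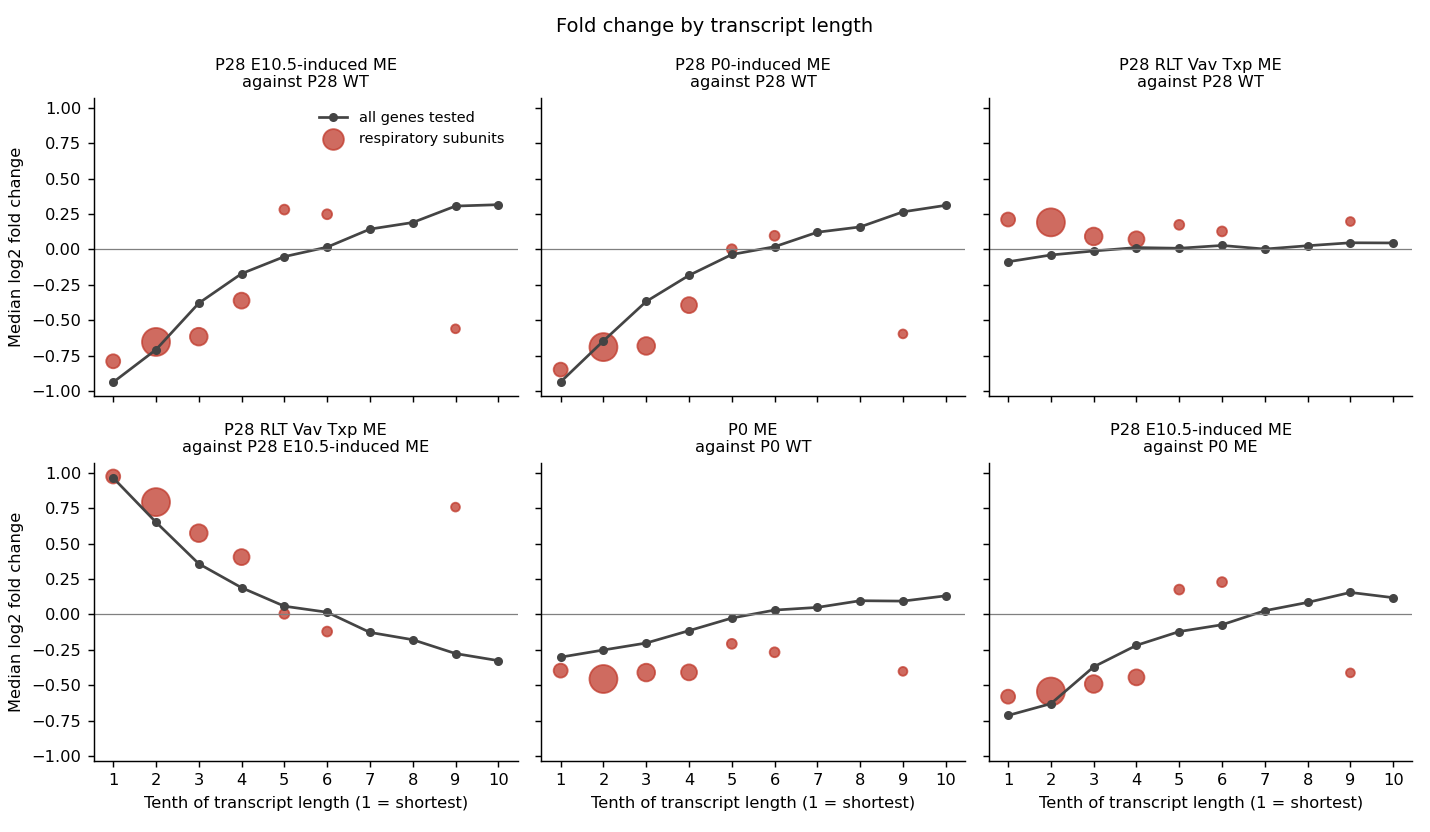
Median log2 fold change over all tested genes (line) and of the subunits (red, area growing with their number) in 10 bins of transcript length, for 6 comparisons. The subunits of bins 1 and 2 lie near the line for E10.5-induced ME against WT, where it climbs from -0.94 to 0.32, and below it for P0 ME against P0 WT.

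Within the members, the Spearman correlation of log2 fold change with length was 0.445 for E10.5-induced ME against WT, 0.414 for P0-induced ME against WT and -0.459 for RLT Vav Txp ME against E10.5-induced ME, each across 79 genes of the same libraries and given as a description. Library by library, the slope of log2 CPM on log2 length over all genes was 0.128 to 0.277 after E10.5 induction, 0.154 to 0.183 after P0 induction and -0.178 to 0.051 in P28 WT. It was 0.065 in RLT Vav Txp ME library 1 and -0.241 to -0.134 in the other 3. P0 WT library 4, with the highest member median, had the lowest slope, -0.43.

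The comparisons were therefore refitted with an offset for transcript length estimated in each library. The member medians became -0.09 for E10.5-induced ME against WT, -0.15 for P0-induced ME against WT, -0.00 for RLT Vav Txp ME against E10.5-induced ME and 0.02 for P28 against P0 in ME. Called members numbered 2 higher and 1 lower in the first of these, against 4.59% and 2.52% of all genes, and 0 in the second, against 0.204% of all genes. For RLT Vav Txp ME against E10.5-induced ME 6 were higher and 4 lower, against 5.04% and 9.99% of all genes, and for P28 against P0 in ME 9 were higher and 1 lower, against 11.6% and 7.46%. The medians over all genes in these 4 fits were -0.06, -0.06, -0.08 and -0.04. For P0 ME against P0 WT the member median stayed at -0.26 (all genes -0.10), with 5 of 79 members above 0 with and without offsets. For P28 against P0 in WT it was -0.14 (all genes -0.06). Such an offset removes any true difference shared by short genes along with a technical one, and the 2 cannot be told apart here.

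With length offsets in E10.5-induced ME against WT, Ndufa4 stayed lower at -0.49 (edgeR adjusted p = 0.0351, SE 0.14), a call that was lost with an added GC term at -0.38 (edgeR adjusted p = 0.0825). Ndufv1 stayed higher at 0.64 (edgeR adjusted p = 0.00749, SE 0.14), and at 0.50 (edgeR adjusted p = 0.017) with the GC term. Cox4i1, lower before, was at -0.27 (edgeR adjusted p = 0.213, SE 0.13). In RLT Vav Txp ME against E10.5-induced ME, Ndufb1-ps, Ndufb4, Ndufs4, Uqcrc2, Uqcrq and Atp5md remained higher, for example Ndufb4 at 0.67 (edgeR adjusted p = 0.0182, SE 0.19) and Uqcrc2 at 0.52 (edgeR adjusted p = 0.0202, SE 0.15). Ndufv1 at -0.49 (edgeR adjusted p = 0.0202, SE 0.14), Atp5d at -0.54 (edgeR adjusted p = 0.0281, SE 0.17) and Cox4i2 at -2.07 (edgeR adjusted p = 0.0076, SE 0.52) were among those called lower there. The offsets of the members that remained higher rest on their chosen transcripts, of 2733 bases for Atp5md, 1698 for Ndufs4 and 1521 for Uqcrq. Without offsets, the 2 members of length bin 9 had a median of 0.76 in this comparison, against -0.28 over all genes of that bin. Offsets from other transcripts of these genes were not tested.

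The calls of Cox4i2 held with length offsets, at -2.10 (edgeR adjusted p = 0.0416, SE 0.52) for P0 ME against P0 WT and -1.94 (edgeR adjusted p = 0.0245, SE 0.52) for RLT Vav Txp ME against P28 WT, where Cox7a2l joined it at -0.50 (edgeR adjusted p = 0.033, SE 0.14). Of all genes, 0.854% and 2.89% were called lower in these fits. Ndufa9 and Uqcrfs1 remained lower in P28 WT than in P0 WT, at -0.57 (edgeR adjusted p = 0.0171, SE 0.15) and -0.50 (edgeR adjusted p = 0.026, SE 0.14), with Atp5a1 added at -0.51 (edgeR adjusted p = 0.0311, SE 0.15) and 5.19% of all genes called lower. Ndufa4l2, lower from P0 to P28 in ME, also remained. The interaction called Ndufv1 at 0.99 (edgeR adjusted p = 0.0111, SE 0.20) and Uqcrc1 at 0.67 (edgeR adjusted p = 0.0483, SE 0.19) among 3 members, against 2.44% of all genes called higher.

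**Figure D5:**
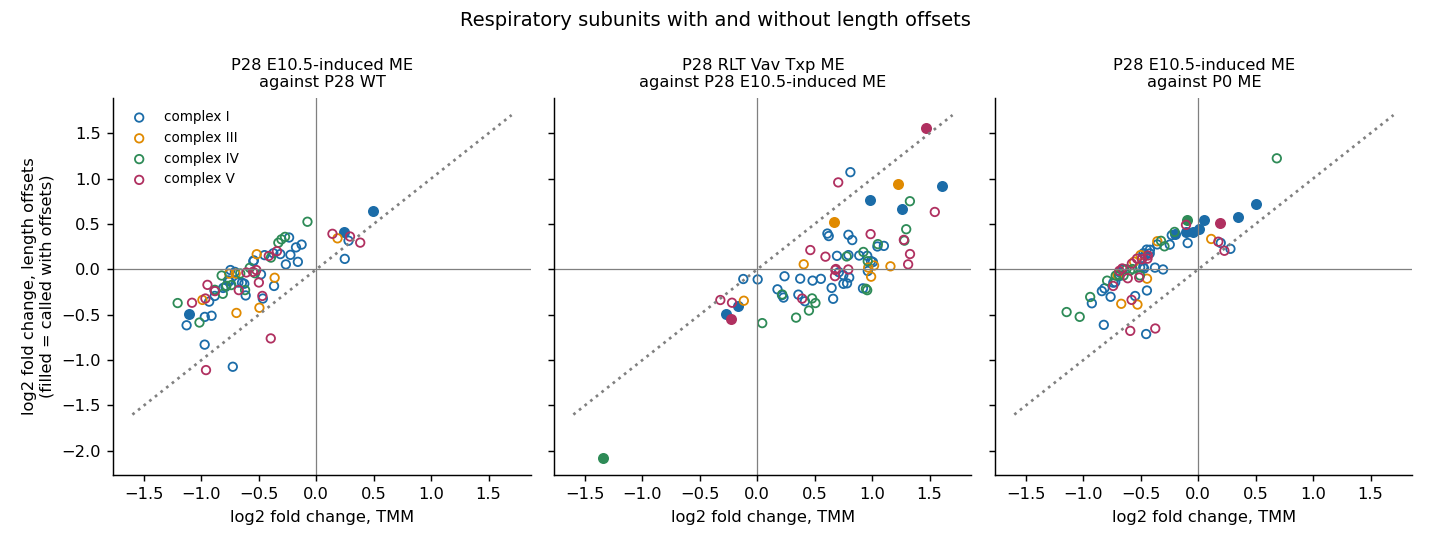
Log2 fold change of each subunit with TMM scaling alone (x axis) and with length offsets added (y axis), filled where called with offsets, for 3 comparisons; the dotted line marks equal values and Ndufa4l2 is left out of the first and the third panel. The offsets move the median from -0.61 to -0.09 in the first panel and from 0.75 to -0.00 in the second.

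Related genes were read from lists. All 13 protein genes of mitochondrial DNA, which code for the other subunits of these complexes, were tested. In E10.5-induced ME against WT 11 were lower, in P0-induced ME against WT 7 were lower, and in RLT Vav Txp ME against E10.5-induced ME 12 were higher. Of all genes, 4.44% were called lower in the first of these, 1.08% lower in the second and 8.5% higher in the third, which the counts of the other lists can be set beside too, with 7.82% called higher in the first and 9.38% lower in the third. The list medians were -1.81, -1.52 and 1.43. For mt-Co1, the catalytic subunit of complex IV, the log2 fold change was -1.79 (edgeR adjusted p = 0.000363, SE 0.26) in the first comparison and -1.59 (edgeR adjusted p = 0.000425) with length offsets. From P0 to P28 in ME, 13 of 13 were lower. These genes are short too, with a median of 784 bases, and not every call held with offsets. In the third comparison mt-Nd3 went from 1.96 (edgeR adjusted p = 0.00396) to 0.67 (edgeR adjusted p = 0.138) with length offsets. In the second, mt-Cytb at -1.46 (edgeR adjusted p = 0.0288) kept its call with length offsets but lost it with GC and length offsets, at -0.79 (edgeR adjusted p = 0.0808). Complex II, which has no subunit encoded in mitochondrial DNA, had 0 of 4 genes called by edgeR in either ME comparison with P28 WT (0 and 1 at an unadjusted p under 0.05). Its flavoprotein Sdha was higher at P28 than at P0 in WT, with a fitted log2 change of 0.72 (edgeR adjusted p = 0.00352, SE 0.15), while Sdhb was lower, with a fitted log2 change of -0.62 (edgeR adjusted p = 0.0221, SE 0.17).

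Assembly factors for complex IV had 6 of 20 lower and 1 higher in E10.5-induced ME against WT, and 7 higher and 1 lower in RLT Vav Txp ME against E10.5-induced ME. The copper chaperone Cox17 was among them, with a fitted log2 change of -2.13 (edgeR adjusted p = 0.00458, SE 0.45) in the first and a fitted log2 change of 1.59 (edgeR adjusted p = 0.0145, SE 0.44) in the second, and both calls held with length offsets at -2.40 and 1.79. Complex I factors had 1 of 15 called higher in E10.5-induced ME with Acad9 at 0.81 (edgeR adjusted p = 0.0487, SE 0.27), complex III factors 0 of 6 (2 at an unadjusted p under 0.05) and complex V factors 1 of 5 lower with Tmem242 at -0.58 (edgeR adjusted p = 0.0293, SE 0.17). Neither was called with length offsets, at 0.50 (edgeR adjusted p = 0.119) for Acad9 and -0.13 (edgeR adjusted p = 0.652) for Tmem242, and Acad9 lost its call in 7 of 8 fits that left out 1 library. Of 77 mitochondrial ribosomal protein genes, 9 were lower and 1 higher in E10.5-induced ME against WT, and 26 were higher and 1 lower in RLT Vav Txp ME against E10.5-induced ME. Mrpl23 had a fitted log2 change of -0.71 (edgeR adjusted p = 0.0106, SE 0.18) in the first comparison, and -0.14 (edgeR adjusted p = 0.617) with length offsets.

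Of 15 genes that regulate the respiratory chain, 5 were higher and 0 lower in E10.5-induced ME against WT, among them Nrf1, with a fitted log2 change of 0.81 (edgeR adjusted p = 0.00448, SE 0.17), and Gabpa, with a fitted log2 change of 0.92 (edgeR adjusted p = 0.00499, SE 0.20). Both calls held with length offsets, at 0.89 and 0.55. In P0-induced ME against WT 0 of 15 were called by edgeR (3 at an unadjusted p under 0.05). In RLT Vav Txp ME against E10.5-induced ME 6 were lower and 0 higher, with -0.72 (edgeR adjusted p = 0.00519, SE 0.17) for Nrf1 and -0.79 (edgeR adjusted p = 0.00716, SE 0.20) for Gabpa. Citrate cycle genes had 5 of 13 higher and 0 lower in E10.5-induced ME against WT, such as Mdh2 at 0.53 (edgeR adjusted p = 0.0257, SE 0.15) and Cs at 0.57 (edgeR adjusted p = 0.0247, SE 0.16), the latter not called with length offsets (edgeR adjusted p = 0.105). Of 18 glycolysis genes, 3 were higher and 0 lower in that comparison, such as Pkm, the pyruvate kinase gene, with a fitted log2 change of 0.83 (edgeR adjusted p = 0.00968, SE 0.20). Cytochrome c (Cycs) and c1 (Cyc1) were not called in either ME comparison with P28 WT (edgeR, 0 of 2 at an unadjusted p under 0.05 in each).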

How the data were processed

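Gene counts in 24 libraries were deposited by the authors as whole-number read counts, not normalised. Per the submitters' processing notes, STAR 2.7.9a, featureCounts 2.0.3 and GRCm38 were used; strand setting and treatment of multi-mapping reads are not given in the sources used here. The 55774 rows held 55487 distinct IDs, and the repeats of 168 IDs had identical counts and were counted once. Genes passing edgeR's filterByExpr (minimum count 10) numbered 23059. TMM scaling and edgeR 4.0.16 quasi-likelihood tests (R 4.3.3) were run over all 6 groups with 18 residual degrees of freedom, with Benjamini-Hochberg adjustment over all genes and a threshold of 0.05. CPM are TMM-normalised. Replicate libraries were all more different than sampling noise allows. Length and GC came from GENCODE M21 transcripts, and length offsets were splines with 4 degrees of freedom fitted in each library. The procedure was tested on simulated data. Alternatives used RLE factors or plain totals, DESeq2 1.42.0, limma 3.58.1 voom, other filters, only the groups compared, a replicate block and libraries left out.

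Per comparison and complex the text names the 2 called members with the lowest p, or the 1 with the lowest p where none was called, besides core subunits, tissue isoforms, extremes of level and untested members, and at most 2 called genes of each related list. Exceptions are said to have been named after their values were seen. Members and lists were chosen with earlier results of these data known. A result on 1 member was left out and is not reported here.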

Additional observations from a re-analysis of the deposited data

Results flagged for a closer look

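Of 216 groups of 4 libraries examined, 12 had 1 library far from the other 3 (by Dixon's gap test at the 95% level), where chance alone gives about 1 in 20. RLT Vav Txp ME library 1 gave 5 of them. Its subunit median was -0.13 for complex III (others 0.56 to 0.60), -0.21 for complex IV (others 0.41 to 0.47) and -0.14 for complex V (others 0.43 to 0.50), in log2 CPM relative to the mean of all libraries. Members took 1.35% of its counts against 1.91 to 2.01% in the others, and Ndufb8 was at 89.2 CPM against 151 to 162 CPM.

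In P0 WT, Uqcrfs1 was high in library 4, at 409 CPM. P28 WT library 2 was high for Atp5g3, at 476 CPM, and for Uqcrfs1, at 187 CPM. In P0-induced ME, Atp5mpl was low in library 1, at 63.1 CPM, and Uqcrc1 low in library 3, at 398 CPM. Ndufa4l2 was detected mainly in library 3 of E10.5-induced ME, at 0.20 CPM (14 counts), and only in library 3 of P0-induced ME, at 0.0156 CPM (1 count).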

How the results depend on the processing

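Counts of called members depended on the method more than the medians did, except with length offsets, where several medians moved as well. The percentages in brackets are the shares of all genes called in the same fit. For E10.5-induced ME against P28 WT (16 called), plain library totals gave 46 (9.76%), DESeq2 42 (21.2%), limma voom 60 (28.2%), a filter of 10 counts in 12 libraries 25 (15.3%), only the groups compared 63 (34%), GC and length offsets 2 (6.54%) and length offsets 3 (7.11%). For P0-induced ME against P28 WT (6 called) the same alternatives gave 16 (2.29%), 41 (12.5%), 59 (21.7%), 10 (3.26%), 66 (27.9%), 0 (0.278%) and 0 (0.204%), and RLE factors gave 10 (1.95%). For P28 against P0 in ME (15 called), DESeq2 gave 27 (26.6%), voom 24 (25.6%), no filter 9 (7.64%), GC and length offsets 5 (17.8%) and leaving out the P0 libraries numbered 1, an alternative chosen after seeing the data, 44 (21.4%). Length offsets gave 10 there, but 9 of them higher, where 13 of 15 had been lower. For P28 against P0 in WT (2 called), plain totals, voom and only the groups compared gave 0 (7.23%, 5.58% and 2.5%), no filter 1 (3.02%), GC and length offsets 6 (9.6%) and leaving out those P0 libraries 19 (11.7%). The interaction (0 called) gave 1 (3.47%) with DESeq2, 2 (2.79%) with voom, 2 (2.95%) with GC and length offsets, 3 (3.03%) with length offsets and 1 (0.973%) without those libraries. P0 ME against P0 WT (1 called) gave 0 with voom (0.0694%), only the groups compared (0.0259%) or without those libraries (0.998%). RLT Vav Txp ME against P28 WT (1 called) gave 0 with voom (6.17%) or only the groups compared (6.22%), 3 (6.41%) with GC and length offsets and 2 (5.56%) with length offsets. RLT Vav Txp ME against E10.5-induced ME (45 called) gave 9 (14.7%) and 10 (15%) with those offsets. P0-induced against E10.5-induced ME (0 called) gave 6 (10.1%) with voom and 2 (6.35%) with only the groups compared, and its median became 0.030 with plain totals. With GC and length offsets and with length offsets the medians were -0.13 and -0.092 for E10.5-induced ME against WT, -0.20 and -0.15 for P0-induced ME against WT, 0.070 and -0.0012 for RLT Vav Txp ME against E10.5-induced ME, and -0.016 and 0.019 for P28 against P0 in ME. Uqcrh changed sign in RLT Vav Txp ME against E10.5-induced ME with GC and length offsets, to -0.034 (edgeR adjusted p = 0.912), and Uqcc2, a complex III assembly factor, with length offsets, to -0.22 (edgeR adjusted p = 0.464). The causes were not tested. Leaving out 1 library at a time gave 1 to 17 called members for E10.5-induced ME against WT (medians -0.66 to -0.54), 0 to 7 for P0-induced ME against WT (-0.71 to -0.61), 20 to 53 for RLT Vav Txp ME against E10.5-induced ME (0.69 to 0.88), 0 to 1 for RLT Vav Txp ME against WT (0.10 to 0.28), 0 for P0-induced against E10.5-induced ME (-0.13 to -0.01), 0 to 7 for P0 ME against P0 WT (-0.63 to -0.14), 0 to 12 for P28 against P0 in WT (-0.47 to -0.01), 3 to 32 for P28 against P0 in ME (-0.63 to -0.36) and 0 to 6 for the interaction (-0.49 to -0.00). The shares of all genes called in these fits are not given, so the counts cannot be set beside them. Replicate numbers, given for 20 libraries, were not used to pair them in the main fit. The correlation of deviations between same-numbered libraries of different groups averaged 0.047 over 40 pairs, with 14 above 0.1. Between differently numbered libraries it averaged -0.015 over 120 pairs, with 31 above 0.1. Of the 20 libraries, 8 correlated best with their own number, so a weak pairing was not excluded. With a replicate block on those libraries, 30 members (14% of all genes) were called for E10.5-induced ME against WT, 20 (4.25%) for P0-induced ME against WT and 1 (1.49%) for the interaction, which also had 1 (1.64%) in the same libraries without the block. With 4 libraries a group, small differences in members may be missed, and genes at a few counts such as Ndufa4l2 are limited by depth.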
